A study of Mus musculus with 9 samples.

Results

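The transcription factors IRF4, IRF8, BATF, BATF3, Blimp-1, ID2, ZEB2, RUNX3 and BHLHE40 help to set the fate of activated CD8 T cells, and several are known for their part in effector function. Their genes (Irf4, Irf8, Batf, Batf3, Prdm1, Id2, Zeb2, Runx3 and Bhlhe40), taken by symbol, are 9 of the 24060 genes in the table. Transnuclear mice carry the rearranged T cell receptor genes of the single T cell whose nucleus founded the line. In the mouse lines R7-I, R7-III and R7-II the CD8 T cells therefore each bear 1 receptor for the ROP7 peptide of Toxoplasma gondii, so that a clone here is also a line. Affinity for the peptide is highest in R7-I, intermediate in R7-III and lowest in R7-II, and self-reactivity is highest in R7-III and lowest in R7-II. The affinity order is that of measurements on purified proteins. In the paper's membrane-anchored measurement, R7-I and R7-III were similar and R7-II was lowest. With 1 line for each receptor, affinity, self-reactivity and other traits of the line cannot be told apart here. Spleen cells of all 3 groups were cultured overnight in medium with IL-2 (10 ng/ml) and the ROP7 peptide (10 µM), and cells that were CD3+ CD8+ H-2Ld-Rop7+ (positive for the peptide tetramer) were sorted for polyA RNA sequencing. There were 3 libraries per clone, 9 in all. The labels call them biological replicates without saying whether they came from separate mice, so the p-values measure only the spread between these libraries. Age and sex are not given in the labels used here, and unstimulated cells were not analysed here.

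These factors act in a connected circuit. Signals from the T cell receptor induce IRF4 in a graded way, and IRF4 binds DNA weakly alone but strongly beside BATF, a small basic leucine zipper protein that pairs with JUN proteins. Blimp-1 is a zinc finger repressor of terminal effector cells, ID2 holds E proteins away from DNA, ZEB2 acts with T-bet in terminal effectors, RUNX3 keeps CD8 lineage identity and the cytotoxic programme, and BHLHE40 is a basic helix-loop-helix repressor. IRF8 and BATF3 are also known for their part in dendritic cells, and IRF4, IRF8 and Blimp-1 for theirs in B cells.

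Levels are given as TPM, transcripts scaled for gene length and to the same total in each library. The number of reads behind a value is therefore not known from the table, and no counting interval is given. Changes are log2 fold changes of TPM + 1, which understate the change of genes with a low TPM, and a gene passed when its adjusted p from limma was under 0.01. Of 9 members, 8 reached the filter of a maximum TPM above 1; Prdm1 did not. Over the 11330 genes tested, the median log2 fold change of R7-II was 0.17 relative to R7-I and 0.12 relative to R7-III. Scaling each library by a median of ratios took both medians to near 0, and changes are also given relative to these medians where that matters.

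Of the 8 factor genes tested, most were lower in the low-affinity clone R7-II, and Id2 alone passed as higher. In the comparison with R7-I, 6 of the 8 members tested passed, beside 56.1% of all genes tested. Of these, 5 were lower (Irf4, Irf8, Batf3, Zeb2 and Bhlhe40), beside 15.5% of all genes, and 1 was higher (Id2), beside 40.6%. In the comparison with R7-III, 7 members passed, beside 53.6% of all genes, with 6 lower (those 5 and Batf; 18.0% of all genes) and Id2 higher (35.6% of all genes). Runx3 passed in neither. The median log2 fold change of the 8 members was -0.50 and -0.47. Batf3 reached the filter only in R7-I and R7-III, which favours a lower call in R7-II; without it, 4 of 7 members were lower relative to R7-I and 5 of 7 relative to R7-III, with medians of -0.36 and -0.42. The R7-II libraries did not overlap those of the other clone for 7 of 8 members in each comparison, beside 71.2% and 70.6% of all genes tested. Both comparisons share the R7-II libraries. After scaling by the median of ratios, all 7 members tested other than Id2 passed as lower in both comparisons, beside 29.4% and 28.2% of all genes, and Id2 passed as higher, beside 25.2% and 25.0%. With quantile normalization, 8 members passed relative to R7-I and 7 relative to R7-III (all but Irf4), Id2 as higher and the others as lower, beside 26.6% and 25.1% of all genes lower and 22.6% and 24.4% higher. Batf3 is counted among the lower members under both scalings and among those without overlap. RNA levels of sorted cells are averages, so fewer cells with a transcript and less of it per cell cannot be told apart.

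**Figure D1:**
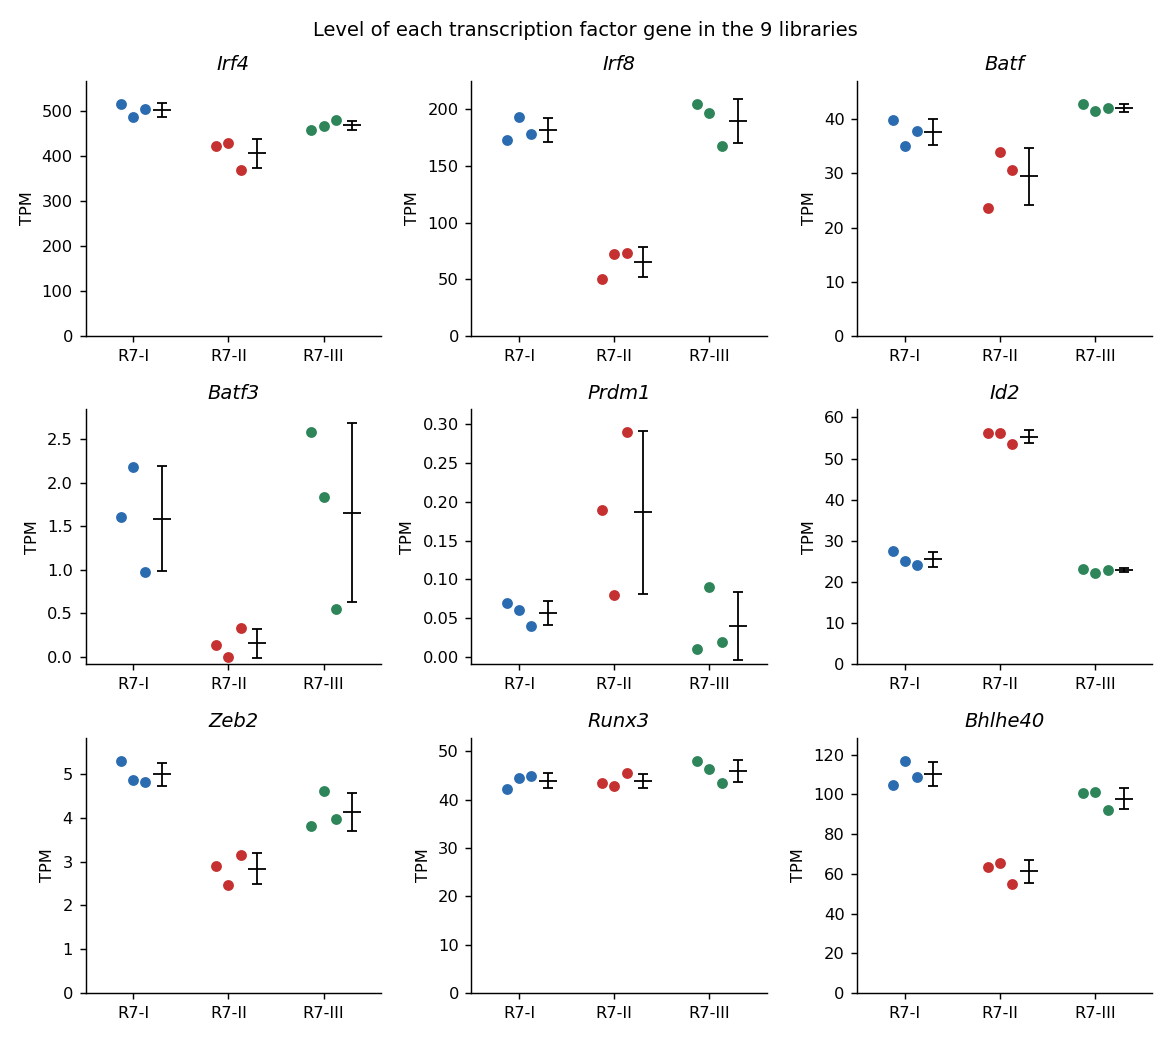
TPM of each of the 9 factor genes in the 9 libraries, with the 3 libraries of each clone as points and the mean ± SD (n = 3) as the black cross bar beside them; each panel has its own axis. The R7-II libraries sit at 50.5 to 73.1 TPM for Irf8 and at 53.4 to 56.3 TPM for Id2, apart from both other clones, while those of Runx3 overlap with the rest.

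The sequences upstream of the transcription starts are shown for Irf8 and Batf3 (the members with the most negative log2 fold changes), for Id2 (the member that passed as higher in R7-II) and for Runx3, at its start farther upstream (the member tested that passed in no comparison). They are the 250 bases before the start in RefSeq on GRCm38.p6, the build that mm10 names, read 5′ to 3′ on the strand of the gene. Of the 9 members, 8 had a promoter entry, all but Bhlhe40. Capitals mark matches, on either strand, to the motifs searched: TGANTCA (AP-1, the kind of site BATF uses), GAAA and GAAA with any 2 bases between them (IRF), TGTGGT (RUNX), CACCTG (ZEB), CACGTG (BHLHE40), GGGA and TTCC with any 2 bases between them (NF-kB) and TTCNNNGAA (GAS, a STAT site).
Irf8, chr8:120736108-120736357, plus strand: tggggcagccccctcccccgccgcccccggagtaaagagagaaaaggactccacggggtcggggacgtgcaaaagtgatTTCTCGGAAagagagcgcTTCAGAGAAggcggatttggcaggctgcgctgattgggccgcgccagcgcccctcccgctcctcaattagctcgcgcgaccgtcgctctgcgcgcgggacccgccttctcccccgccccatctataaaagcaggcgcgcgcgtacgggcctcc
Batf3, chr1:191098164-191098413, plus strand: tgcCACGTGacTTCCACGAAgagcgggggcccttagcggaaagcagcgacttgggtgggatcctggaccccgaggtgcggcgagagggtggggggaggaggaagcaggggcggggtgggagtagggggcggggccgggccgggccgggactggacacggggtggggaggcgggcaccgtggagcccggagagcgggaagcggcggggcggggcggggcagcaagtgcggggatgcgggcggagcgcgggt
Id2, chr12:25096093-25096342, minus strand: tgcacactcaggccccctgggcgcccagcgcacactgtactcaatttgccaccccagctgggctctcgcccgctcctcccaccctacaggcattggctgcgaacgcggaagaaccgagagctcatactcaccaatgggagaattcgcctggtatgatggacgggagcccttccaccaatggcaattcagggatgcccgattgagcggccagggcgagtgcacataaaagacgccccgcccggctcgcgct
Runx3, chr4:135120395-135120644, plus strand: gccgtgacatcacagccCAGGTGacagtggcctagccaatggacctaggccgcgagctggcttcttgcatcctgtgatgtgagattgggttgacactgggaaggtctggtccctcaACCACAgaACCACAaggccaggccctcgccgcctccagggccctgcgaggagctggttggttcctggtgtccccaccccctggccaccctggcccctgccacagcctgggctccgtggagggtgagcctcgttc
The Irf8 sequence held 2 GAS matches, and 7.02% of all 32851 promoters of this length held at least 1. Batf3 held 1 CACGTG match (6.02% of promoters) and 1 GAS match that do not overlap. The Runx3 sequence held 2 RUNX matches (14.0% of promoters) and 1 ZEB match (17.2%), and the Runx3 start farther downstream held none of the motifs. Id2 held no match to these letters in this window, and neither did Irf4. Among the other entries, Batf held 2 RUNX matches, Prdm1 held 1 AP-1 and 1 ZEB match, and the downstream start of Irf8 held 1 ZEB match. Of 4 Zeb2 starts, 1 held 2 AP-1 matches (6.75% of promoters) and 2 that overlap each other held the same GAS match. No member had a match to the IRF motif (2.98% of promoters) or to the NF-kB motif (1.21%). A match of letters is not evidence of binding, and no binding was measured here.

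The interferon regulatory factors were the most abundant members, and they were lower in R7-II to unequal degrees. Irf4 (chromosome 13 of GRCm38.p6, 30749233 to 30766981) stood at 515, 486 and 506 TPM in the libraries of R7-I, 459, 468 and 479 TPM in those of R7-III and 422, 428 and 369 TPM in those of R7-II. No library of 1 clone overlapped those of another, and the means followed the order of affinity (502 ± 14.8, 468 ± 10.4 and 406 ± 32.4 TPM, mean ± SD, n = 3 each). Even in R7-II, Irf4 lay within the top 2.85% of genes tested by mean TPM. The log2 fold change in R7-II relative to R7-I was -0.31 (standard error 0.0504, adjusted p = 2.97e-04), and relative to R7-III it was -0.21 (adjusted p = 0.00400). Beyond the median of all genes these changes were -0.47 and -0.33. The step from R7-I to R7-III was -0.10 and did not pass (adjusted p = 0.200, 95% interval of the difference -0.21 to 0.011). The call relative to R7-III was lost without replicate 2 or 3 of R7-III (adjusted p = 0.0127 and 0.0167), after quantile normalization (0.0402), without the trend (0.0152), with no filter (0.0108) and with only the clones compared in the fit (0.0125), and it held in 12 of 18 alternatives.

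Irf8 (chromosome 8, 120736358 to 120756694), whose product shares DNA-binding partners with IRF4, was lower in R7-II by far more. It stood at 173, 194 and 178 TPM in the libraries of R7-I, 205, 197 and 168 TPM in those of R7-III and 50.5, 72.4 and 73.1 TPM in those of R7-II. The highest R7-II library was thus well below the lowest library of either other clone, while R7-I and R7-III overlapped. The mean of R7-II was 64.0% below that of R7-I and 65.6% below that of R7-III, with log2 fold changes of -1.48 (standard error 0.126, adjusted p = 3.08e-06) and -1.54 (adjusted p = 2.29e-06). Ordered from the most negative fold change of all 11330 genes, Irf8 ranked 55 relative to R7-I and 136 relative to R7-III. R7-III and R7-I differed by 0.06 (adjusted p = 0.794, 95% interval -0.22 to 0.34). R7-II replicate 1 was the lowest library, and without it the log2 fold changes of R7-II were -1.31 and -1.37.

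The ratio of Irf4 to Irf8 within a library hardly depends on how libraries are scaled. On the log2 scale of TPM + 1 it was 2.63 ± 0.37 for R7-II, 1.46 ± 0.13 for R7-I and 1.30 ± 0.18 for R7-III (mean ± SD, n = 3). The R7-II libraries did not overlap the other 6, with a difference of 1.25 (two-sided exact permutation, p = 0.0238, the lowest value that 3 against 6 libraries allow). After Benjamini-Hochberg adjustment over the 7 ratios tested, this exact permutation p was 0.0417. A ratio was said to part R7-II from the others when its adjusted p was under 0.05. Every ratio that did so sat at the lowest p, so its adjusted p depended on how many ratios reached that value together. R7-III and R7-I differed by -0.16 (exact permutation p = 0.300, where 0.1 is the lowest p possible).

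Of the BATF pair, Batf was moderately lower in R7-II, and Batf3 was at most 2.58 TPM in any library. Batf (chromosome 12, 85686720 to 85709087) stood at 39.8, 35.1 and 37.9 TPM in the libraries of R7-I, 42.8, 41.4 and 42.0 TPM in those of R7-III and 23.7, 33.9 and 30.7 TPM in those of R7-II. The 3 clones did not overlap, although the gap between R7-I and the highest R7-II library was small. Its log2 fold change in R7-II passed relative to R7-III (-0.52, standard error 0.104, adjusted p = 0.00129) and missed the threshold relative to R7-I (-0.36, adjusted p = 0.0108). Beyond the medians of all genes these changes were -0.64 and -0.52. Batf also passed relative to R7-I when libraries were scaled by the median of ratios (adjusted p = 0.00258) and without R7-II replicate 2 (adjusted p = 0.00162). Without R7-II replicate 1, the lowest library, its log2 fold change relative to R7-I was -0.21. Batf averaged 42.1 ± 0.672 TPM (R7-III) and 37.6 ± 2.38 TPM (R7-I), which did not pass (0.16, adjusted p = 0.326, 95% interval -0.07 to 0.39).

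Batf3 (chromosome 1, 191098414 to 191108943) stood at 1.61, 2.18 and 0.970 TPM in the libraries of R7-I, 2.58, 1.84 and 0.550 TPM in those of R7-III and 0.14 and 0.33 TPM in replicates 1 and 3 of R7-II, and it was listed at 0 in R7-II replicate 2. All R7-II libraries were below all others, but only R7-I and R7-III carried the gene past the filter, so its call is not read as support. The log2 fold change in R7-II was -1.14 relative to R7-I (standard error 0.284, adjusted p = 0.00444) and -1.13 relative to R7-III (adjusted p = 0.00506). Its size rested on the pseudocount, with -2.89 relative to R7-I when 0.1 was added and -0.35 when 5 was added. The call relative to R7-I was lost without replicate 1 or 2 of R7-I (adjusted p = 0.0157 and 0.0217) or of R7-II (adjusted p = 0.0138 and 0.0163), with a pseudocount of 5 (0.0116) and with no filter (0.0112), and it held in 11 of 17 alternatives. The call relative to R7-III was lost without replicate 1 or 2 of R7-II (adjusted p = 0.0154 and 0.0181) or of R7-III (adjusted p = 0.0225 and 0.0211), with a pseudocount of 5 (0.0107), no filter (0.0124), no trend (0.0110) or only the clones compared in the fit (0.0115), and it held in 9 of 17. The log2 ratio of Batf to Batf3 was 4.71 ± 0.37 for R7-II, 3.92 ± 0.40 for R7-I and 4.10 ± 0.62 for R7-III. R7-II did not part from the other 6 libraries (difference 0.70, exact permutation p = 0.0952, adjusted 0.133), but did so with a pseudocount of 0.1 (difference 2.39, adjusted exact permutation p = 0.0417).

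Bhlhe40 (chromosome 6, 108660629 to 108666925) was clearly lower in R7-II. It stood at 105, 117 and 109 TPM in the libraries of R7-I, 101, 101 and 91.9 TPM in those of R7-III and 63.5, 65.4 and 54.7 TPM in those of R7-II. No 2 clones overlapped. By mean TPM, R7-II was 44.5% below R7-I and 37.5% below R7-III, with log2 fold changes of -0.84 (standard error 0.0677, adjusted p = 2.10e-06) and -0.67 (adjusted p = 1.06e-05). Both calls held in every alternative run. The step from R7-I to R7-III was -0.17 and did not pass (adjusted p = 0.110, 95% interval -0.32 to -0.019). Its paralog Bhlhe41 averaged at most 0.193 TPM in any clone. The log2 ratio of the pair (5.70 ± 0.22 for R7-II, 6.74 ± 0.10 for R7-I and 6.61 ± 0.061 for R7-III) therefore mainly follows Bhlhe40 itself (exact permutation p = 0.0238, adjusted 0.0417).

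Zeb2 (chromosome 2, 44983512 to 45117442) was low in all clones and lowest in R7-II. It stood at 5.30, 4.87 and 4.82 TPM in the libraries of R7-I, 3.82, 4.62 and 3.97 TPM in those of R7-III and 2.91, 2.46 and 3.16 TPM in those of R7-II. The clones did not overlap, and the means followed the order of affinity. The log2 fold change in R7-II was -0.65 relative to R7-I (standard error 0.0987, adjusted p = 1.87e-04) and -0.42 relative to R7-III (adjusted p = 0.00335). A pseudocount of 5 brought the former to -0.35. The call relative to R7-III was lost without R7-III replicate 2 (adjusted p = 0.0182), with only the clones compared in the fit (0.0112) and, narrowly, without R7-II replicate 2, and it held in 15 of 18 alternatives. The step from R7-I to R7-III was -0.23 and did not pass (adjusted p = 0.142). Zeb1, the paralog that ZEB2 is known to oppose in T cells, averaged 13.6 ± 1.39 (R7-II), 13.8 ± 1.01 (R7-I) and 13.4 ± 0.142 TPM (R7-III) and passed in no comparison. The log2 ratio of Zeb2 to Zeb1 was lower for R7-II (-1.92 ± 0.08) than for R7-I (-1.30 ± 0.10) and R7-III (-1.49 ± 0.11), a difference of -0.53 with no overlap of libraries (exact permutation p = 0.0238, adjusted 0.0417).

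Id2 (chromosome 12, 25093799 to 25096092) was the member that passed as higher in R7-II. It stood at 27.6, 25.1 and 24.1 TPM in the libraries of R7-I, 23.2, 22.3 and 23.0 TPM in those of R7-III and 56.3, 56.2 and 53.4 TPM in those of R7-II. All 3 R7-II libraries lay far above every other library and close to each other. The mean of R7-II was 2.16 times that of R7-I and 2.42 times that of R7-III, with log2 fold changes of 1.08 (standard error 0.0534, adjusted p = 9.34e-08) and 1.24 (adjusted p = 6.59e-08). Beyond the medians of all genes these changes were 0.92 and 1.12. The lower level of R7-III than of R7-I did not pass (-0.15, adjusted p = 0.0695). Id3, the paralog known from naive and memory cells, was higher in R7-II as well, with averages of 98.1 ± 4.76 (R7-II), 46.5 ± 2.62 (R7-I) and 61.7 ± 10.97 TPM (R7-III). The log2 ratio of Id2 to Id3 was -0.81 ± 0.03 for R7-II, -0.84 ± 0.17 for R7-I and -1.38 ± 0.23 for R7-III and did not part R7-II from the other libraries (difference 0.29, exact permutation p = 0.238, adjusted 0.278).

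Runx3 (chromosome 4, 135120645 to 135177990) was the most even member. It stood at 42.2, 44.5 and 45.0 TPM in the libraries of R7-I, 47.9, 46.3 and 43.4 TPM in those of R7-III and 43.5, 42.8 and 45.5 TPM in those of R7-II. All 3 clones overlapped. The log2 fold change in R7-II was 0.00068 relative to R7-I (adjusted p = 0.991, 95% interval -0.10 to 0.11) and -0.061 relative to R7-III (adjusted p = 0.274, 95% interval -0.17 to 0.044). Beyond the medians of all genes, however, these values were -0.17 and -0.18. Runx3 passed as lower in R7-II when libraries were scaled by the median of ratios (-0.18 and -0.19, with adjusted p = 0.00765 and 0.00605) and after quantile normalization (adjusted p = 0.00848 and 0.00515). Whether Runx3 was level or lower in R7-II thus depended on the scaling. The log2 ratio of Runx3 to Runx1 was 3.66 ± 0.27 for R7-II, 3.67 ± 0.13 for R7-I and 3.94 ± 0.22 for R7-III, a difference of -0.14 between R7-II and the rest (exact permutation p = 0.405, adjusted 0.405).

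Prdm1 (chromosome 10, 44437174 to 44528558), which encodes Blimp-1, was barely detected. It stood at 0.07, 0.06 and 0.04 TPM in the libraries of R7-I, 0.01, 0.09 and 0.02 TPM in those of R7-III and 0.19, 0.08 and 0.29 TPM in those of R7-II. All R7-II libraries were above all R7-I libraries and overlapped those of R7-III, and no library was above 0.29 TPM, under the filter. In the fit with no filter (genes above 0 in any library) its log2 fold change was 0.16 for R7-II relative to R7-I (adjusted p = 0.0505) and 0.19 relative to R7-III (adjusted p = 0.0302), neither past the threshold. Bcl6, the repressor that opposes Blimp-1, averaged 9.60 ± 1.45 (R7-II), 3.34 ± 0.634 (R7-I) and 2.53 ± 0.386 TPM (R7-III), with log2 fold changes in R7-II of 1.29 and 1.58 (adjusted p = 1.22e-05 and 3.00e-06). The log2 ratio of Prdm1 to Bcl6 differed by -1.26 between R7-II and the other libraries (exact permutation p = 0.0238, adjusted 0.0417). With Prdm1 near 0 this ratio mainly follows Bcl6, and with a pseudocount of 0.1 it no longer parted the libraries (adjusted exact permutation p = 0.1).

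**Figure D2:**
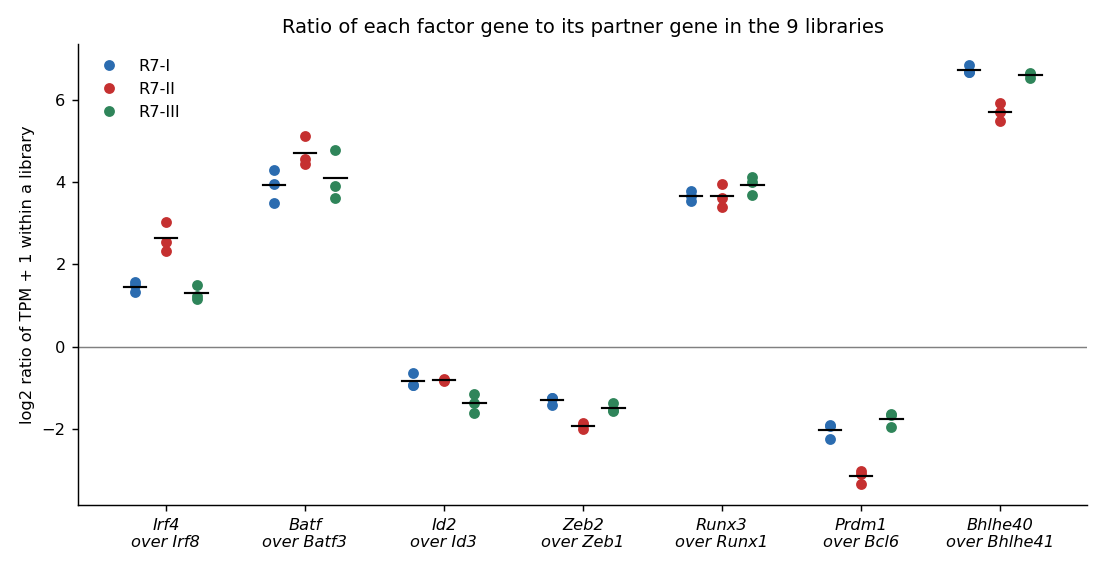
Log2 ratio of TPM + 1 of each factor gene to its partner gene within each library, with a point for each library, coloured by clone, and a black line for the mean of its 3 libraries. R7-II stands apart from all 6 other libraries for Irf4 over Irf8 (higher) and for Zeb2 over Zeb1, Prdm1 over Bcl6 and Bhlhe40 over Bhlhe41 (lower), and overlaps them for the other 3 pairs.

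Between the clones of higher affinity, R7-III and R7-I, 0 of the 8 members passed with limma, where 8.41% of all genes tested passed (6.96% higher in R7-III and 1.45% lower). At an unadjusted p under 0.05 there were 3 members (Id2, Zeb2 and Bhlhe40, each with a negative log2 fold change), beside 32.3% of all genes. The count was also 0 after scaling by the median of ratios (4.86% of all genes higher, 3.72% lower) and after quantile normalization (3.77% higher, 2.25% lower). The libraries did not overlap for 5 of 8 members (Irf4, Batf, Id2, Zeb2 and Bhlhe40), beside 41.9% of all genes. The log2 fold changes lay between -0.23 (Zeb2) and 0.16 (Batf). The means of Irf4, Zeb2 and Bhlhe40 followed the order of affinity over the 3 clones. Those of Irf8, Batf and Batf3 were highest in R7-III and lowest in R7-II, the order of self-reactivity. For Irf8 and Batf3, however, the libraries of R7-III and R7-I overlapped. The log2 fold change of Batf3 between these clones was slightly negative (-0.018), so its place in this order depends on the measure. Neither order can be tied to affinity or self-reactivity with these lines. In none of these 6 genes did R7-I and R7-III differ past the threshold. The means of Id2 and, under the filter, Prdm1 ran opposite to the order of self-reactivity, and those of Runx3 followed neither order.

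**Figure D3:**
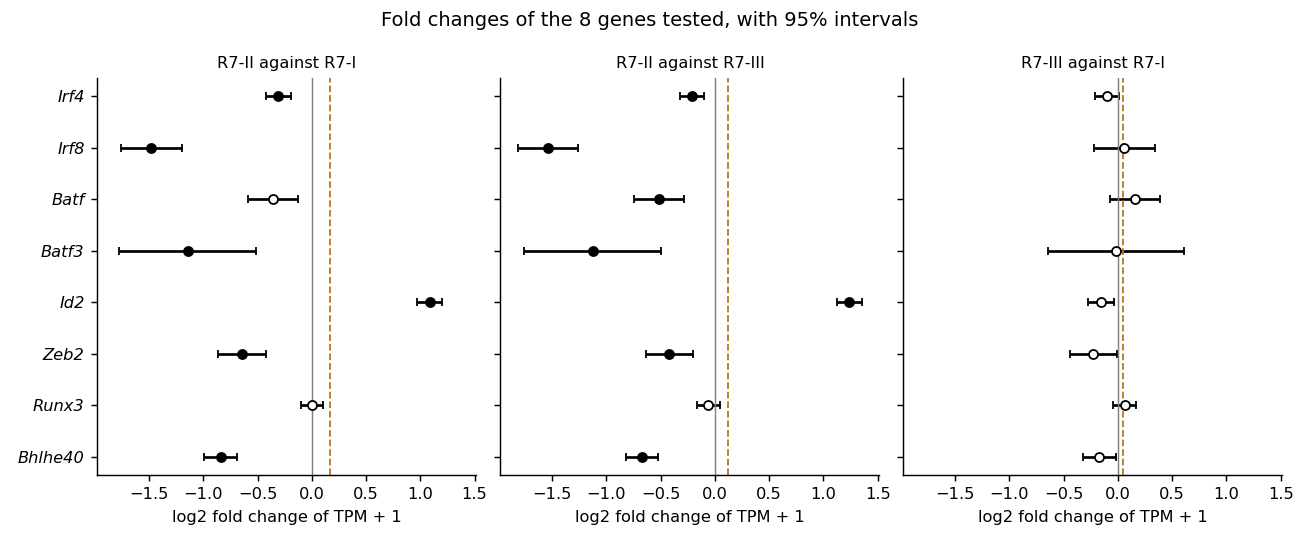
Log2 fold change of TPM + 1 of the 8 genes tested in the 3 comparisons, with 95% intervals from limma; filled points passed an adjusted p of 0.01, the grey line marks 0 and the dashed line the median of all genes tested. Irf8 lies at -1.48 and -1.54 and Id2 at 1.08 and 1.24 in the comparisons of R7-II, and no gene passed between R7-III and R7-I.

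Markers of other cells moved with R7-II. The summed TPM of 7 B cell genes was 34.0 to 70.5 in R7-II, 8.07 to 15.1 in R7-I and 4.88 to 7.34 in R7-III, with Cd79b, Cd79a and Ms4a1 the most abundant. That of 7 MHC class II genes, led by Cd74, H2-Aa and H2-Ab1, was 112 to 183 in R7-II, 32.4 to 50.3 in R7-I and 24.3 to 28.1 in R7-III. The 7 myeloid genes, led by Lyz2, Cd68 and Tyrobp, summed to 24.4 to 78.9 TPM (R7-II), 4.36 to 5.82 TPM (R7-I) and 5.40 to 7.56 TPM (R7-III). All 7 B cell and all 7 MHC class II genes, and 6 of 7 myeloid genes, passed as higher in R7-II relative to R7-I, beside 40.6% of all genes. Of these lists, 2, 1 and 4 genes reached the filter only in R7-II, which favours a higher call; of the others, 5 of 5, 6 of 6 and 3 of 3 passed as higher. The part of other cells in the lower Irf8 and the higher Id2 of the R7-II libraries was not tested. Of 7 dendritic cell genes, Clec9a and Cd209a were at 0 in all 9 libraries, and the sums were 1.77 to 2.51 TPM (R7-II), 2.69 to 3.23 TPM (R7-I) and 2.33 to 2.92 TPM (R7-III). Zbtb46, the most abundant of them, averaged 0.677 ± 0.1002 (R7-II), 2.15 ± 0.247 (R7-I) and 1.79 ± 0.340 TPM (R7-III) and passed as lower in R7-II relative to both other clones. Xcr1, which reached the filter only in R7-II, averaged 1.12 ± 0.289 (R7-II), 0.780 ± 0.0458 (R7-I) and 0.743 ± 0.0416 TPM (R7-III) and passed in no comparison. Flt3, under the filter, also had its highest mean in R7-II (0.143 TPM). The lower sum of R7-II thus mainly follows Zbtb46. The plasma cell genes summed to 63.4 to 74.2 TPM over the 9 libraries, nearly all of it Xbp1, which passed in no comparison, and Tnfrsf17 was at 0 in every library. NK cell genes summed to at most 1.56 TPM, with Klra8 at 0 throughout, and CD4 and regulatory T cell genes to at most 8.01 TPM. The 5 CD8 T cell genes in the table (Cd3d, Cd3e, Cd3g, Cd8a and Cd8b1) summed to 2064 to 2113 TPM (R7-II), 1369 to 1411 TPM (R7-I) and 1580 to 1597 TPM (R7-III).

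**Figure D4:**
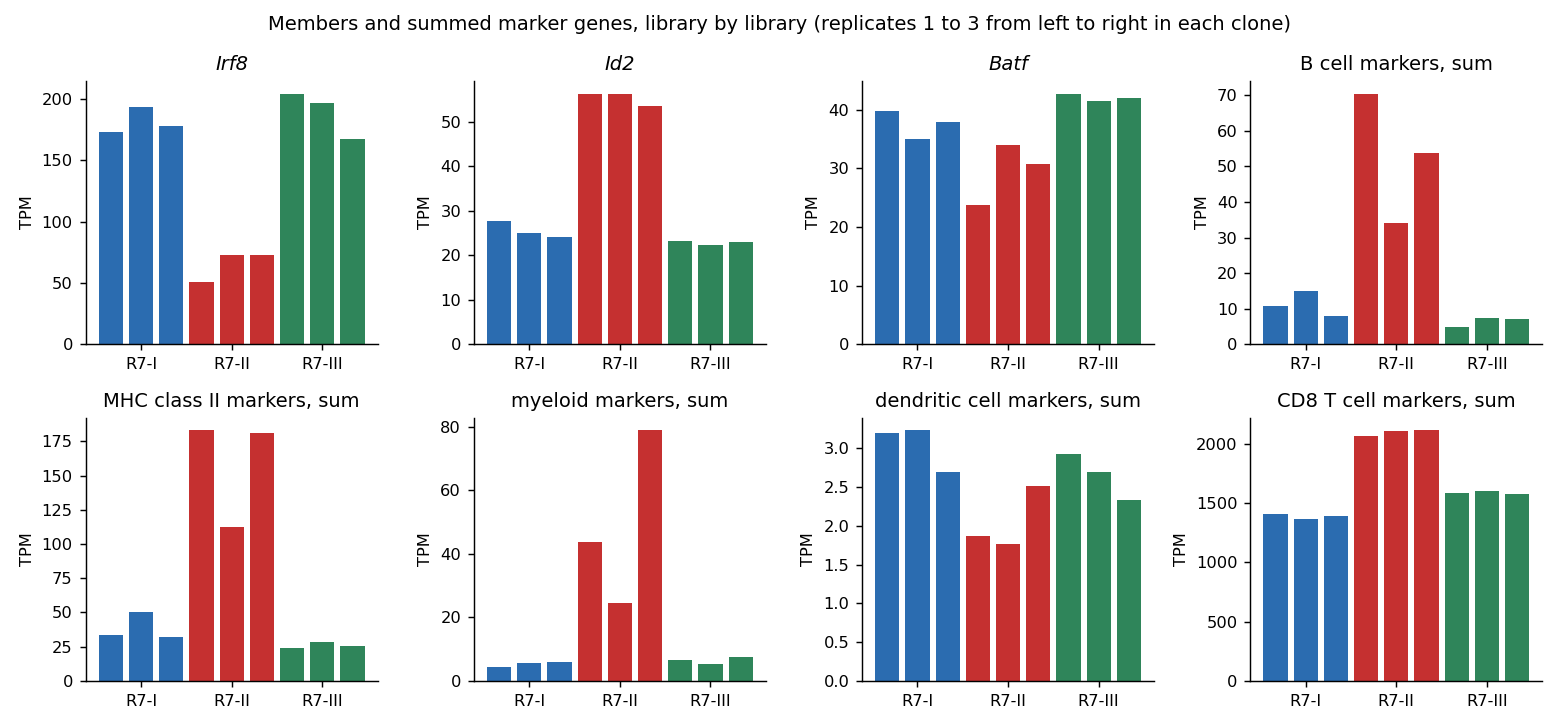
TPM of Irf8, Id2 and Batf and summed TPM of marker genes, with 1 bar per library, coloured by clone, and axes that start at 0. The B cell, MHC class II and myeloid sums are highest in the R7-II libraries, where Irf8 is lowest and Id2 highest; the dendritic cell sum never exceeds 3.23 TPM.

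The families of the members did not move together. Of 14 paralogs, 12 were tested. In R7-II relative to R7-I, 5 passed as higher (Irf2, Irf3, Irf7, Prdm2 and Id3), beside 40.6% of all genes, 1 as lower (Runx2), beside 15.5%, and 6 did not pass. The median log2 fold change was 0.24 beside 0.17 over all genes. Relative to R7-III, 4 were higher and 1 lower, beside 35.6% and 18.0% of all genes. The counts of higher paralogs thus lie near the shares of all genes. Irf1, a mediator of interferon responses, averaged 132 ± 15.6 (R7-II), 122 ± 2.73 (R7-I) and 137 ± 7.12 TPM (R7-III) and passed in no comparison. Irf3, an activator of type I interferon genes, averaged 93.9 ± 3.44 (R7-II), 78.2 ± 2.36 (R7-I) and 82.3 ± 1.77 TPM (R7-III) (log2 fold change relative to R7-I 0.26, adjusted p = 1.32e-04), and this call was lost with median-of-ratios scaling. Irf7, an interferon-induced member, averaged 25.1 ± 14.0 (R7-II), 7.68 ± 1.01 (R7-I) and 12.4 ± 1.93 TPM (R7-III), with a wide spread among the R7-II libraries. Its log2 fold change relative to R7-I was 1.45 (adjusted p = 0.00179), and the call was lost after quantile normalization (adjusted p = 0.0129). Relative to R7-III, Irf7 did not pass (log2 fold change 0.83, adjusted p = 0.0348). Of the interferon regulatory factors tested, Irf4 and Irf8 passed as lower in R7-II and none of the 6 paralogs did.

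Among 11 partner genes, 6 passed as higher in R7-II relative to R7-I and 1 as lower, beside 40.6% and 15.5% of all genes, with a median of 0.16. After scaling by the median of ratios the counts were 3 and 2, beside 25.2% and 29.4%. Relative to R7-III the counts without that scaling were 5 and 1, beside 35.6% and 18.0%. The lower gene was Junb, which encodes a JUN partner of BATF and averaged 146 ± 3.30 (R7-II), 207 ± 7.66 (R7-I) and 194 ± 9.44 TPM (R7-III) (log2 fold change -0.50 and -0.41, adjusted p = 2.33e-06 and 1.05e-05). Ets1, an ETS factor that binds beside RUNX proteins, averaged 281 ± 28.2 (R7-II), 108 ± 5.47 (R7-I) and 117 ± 4.45 TPM (R7-III) (log2 fold change relative to R7-I 1.36, adjusted p = 8.72e-08). Ctbp1, a corepressor of ZEB proteins, averaged 219 ± 3.28 (R7-II), 196 ± 2.51 (R7-I) and 197 ± 4.22 TPM (R7-III), and its change relative to R7-I (0.16, adjusted p = 4.84e-04) turned negative with median-of-ratios scaling. Spi1, the PU.1 partner of IRF4 and IRF8 in myeloid and B cells, averaged 1.59 ± 0.769 (R7-II), 0.223 ± 0.0252 (R7-I) and 0.307 ± 0.0462 TPM (R7-III) (log2 fold change 1.04, adjusted p = 5.82e-04), and it reached the filter only in R7-II and moved with the myeloid and B cell sums above. Between R7-III and R7-I, 1 partner passed (beside 8.41% of all genes), Tcf3, an E protein that ID2 binds (0.23, adjusted p = 0.00375). With median-of-ratios scaling 0 partners passed there.

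Factors of naive and memory cells, which some of the members are known to oppose, were higher in R7-II. Of 9, 8 passed as higher relative to R7-I (all but Satb1) and 8 relative to R7-III (all but Bach2), beside 40.6% and 35.6% of all genes. In both comparisons 0 were lower, beside 15.5% and 18.0%, and the median log2 fold changes were 0.94 and 1.05. After scaling by the median of ratios, 7 and 8 were higher, beside 25.2% and 25.0%. Tcf7, which encodes TCF-1, averaged 481 ± 60.5 (R7-II), 180 ± 15.9 (R7-I) and 183 ± 2.88 TPM (R7-III). Foxp1, a quiescence factor, averaged 178 ± 6.91 (R7-II), 143 ± 0.168 (R7-I) and 149 ± 4.89 TPM (R7-III), and Satb1, a chromatin organiser, 129 ± 12.1 (R7-II), 106 ± 3.32 (R7-I) and 92.5 ± 12.1 TPM (R7-III). Klf2, a factor of quiescence and trafficking, had the largest change of this list (log2 fold change 3.33 relative to R7-I). The paper had already reported Klf2 as higher in activated R7-II, and the list was written with earlier results known.

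Of 14 signalling genes known to lie upstream of the members, 5 passed as higher in R7-II relative to R7-I (beside 40.6% of all genes) and 6 as lower (15.5%). The other 3 did not pass, and the median was -0.029. Relative to R7-III, 4 were higher (35.6% of all genes) and 7 lower (18.0%). After scaling by the median of ratios the counts were 3 and 7 (25.2% and 29.4%), then 3 and 8 (25.0% and 28.2%). Nfkb1, an NF-kB subunit, averaged 564 ± 3.53 (R7-II), 730 ± 10.5 (R7-I) and 628 ± 4.79 TPM (R7-III). It was the 1 gene of the list to pass between R7-III and R7-I (-0.22, adjusted p = 1.44e-04), beside 8.41% of all genes. Il2ra, the IL-2 receptor alpha chain, averaged 260 ± 13.8 (R7-II), 377 ± 14.1 (R7-I) and 357 ± 11.6 TPM (R7-III). Egr1, an immediate early factor, averaged 178 ± 12.3 (R7-II), 98.0 ± 3.08 (R7-I) and 98.8 ± 4.38 TPM (R7-III), and Il12rb2, an IL-12 receptor chain, 8.74 ± 1.77 (R7-II), 30.4 ± 2.06 (R7-I) and 31.6 ± 7.10 TPM (R7-III) (log2 fold change relative to R7-I -1.70, adjusted p = 5.98e-06).

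Genes known to depend on the members were described in 3 lists. Of 7 genes of glucose use, 4 passed as lower in R7-II relative to R7-I and 1 as higher, beside 15.5% and 40.6% of all genes. Relative to R7-III 3 were lower and 0 higher, beside 18.0% and 35.6%. After scaling by the median of ratios, 6 and 5 were lower, beside 29.4% and 28.2%, and 0 higher, beside 25.2% and 25.0%. Ldha, lactate dehydrogenase, averaged 1241 ± 70.8 (R7-II), 1800 ± 12.02 (R7-I) and 1943 ± 19.7 TPM (R7-III), and Hk2, hexokinase, 39.2 ± 1.88 (R7-II), 70.9 ± 3.62 (R7-I) and 65.5 ± 1.69 TPM (R7-III). Pfkp, a phosphofructokinase, averaged 111 ± 8.16 (R7-II), 144 ± 2.75 (R7-I) and 136 ± 1.82 TPM (R7-III), and the aldolase gene Aldoa, which passed in no comparison, 1030 ± 38.0 (R7-II), 1095 ± 26.7 (R7-I) and 1102 ± 30.2 TPM (R7-III).

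Of 9 effector genes, 6 were tested, and 3 passed relative to R7-I, all lower in R7-II, beside 15.5% of all genes lower. Tbx21, which encodes T-bet, averaged 5.25 ± 1.65 (R7-II), 45.6 ± 1.45 (R7-I) and 49.7 ± 6.66 TPM (R7-III). The paper had already listed Tbx21 as lower in activated R7-II. The granzyme gene Gzmb averaged 73.8 ± 15.2 (R7-II), 698 ± 175 (R7-I) and 366 ± 91.0 TPM (R7-III), and the interferon gamma gene Ifng 36.6 ± 11.2 (R7-II), 149 ± 14.4 (R7-I) and 122 ± 5.39 TPM (R7-III). Relative to R7-III, 5 were lower and 1 higher, beside 18.0% and 35.6% of all genes. Havcr2, 1 of those 5, averaged 0.240 ± 0.149 (R7-II), 0.677 ± 0.259 (R7-I) and 1.03 ± 0.230 TPM (R7-III). It did not reach the filter in R7-II, which favours a lower call. The higher gene was Gzma, at most 1.05 TPM by clone mean, which reached the filter only in R7-II. Prf1, perforin, averaged 26.9 ± 0.772 (R7-II), 36.3 ± 8.32 (R7-I) and 39.5 ± 0.628 TPM (R7-III) and passed relative to R7-III (log2 fold change -0.54, adjusted p = 0.00393). Klrg1, Cx3cr1 and S1pr5, genes of terminal effectors linked to ZEB2, did not reach the filter.

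Of 5 CD8 lineage genes linked to RUNX3, 3 were tested and passed as higher in R7-II relative to both other clones. Over all genes 40.6% (relative to R7-I) and 35.6% (relative to R7-III) did so. Cd8a averaged 430 ± 31.8 (R7-II), 343 ± 5.55 (R7-I) and 377 ± 3.94 TPM (R7-III), and Cd8b1 519 ± 31.9 (R7-II), 320 ± 8.14 (R7-I) and 326 ± 5.23 TPM (R7-III). Itgae, the integrin chain CD103, averaged 52.6 ± 10.5 (R7-II), 11.1 ± 2.39 (R7-I) and 7.14 ± 0.458 TPM (R7-III) (log2 fold change 2.15 and 2.70, adjusted p = 1.03e-06 and 2.46e-07). Cd8a lost both calls with median-of-ratios scaling. Zbtb7b and Cd4, which RUNX3 is known to silence, stayed under the filter in all clones.

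**Figure D5:**
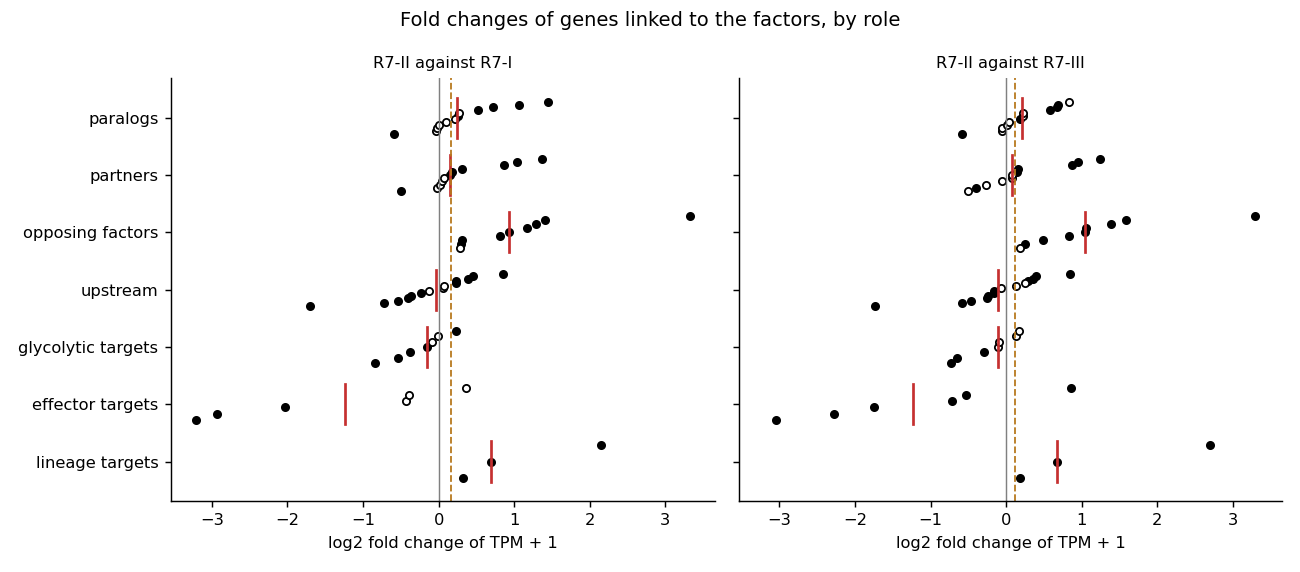
Log2 fold change of TPM + 1 of the genes in the 7 lists linked to the factors, in R7-II relative to R7-I (left) and to R7-III (right). Each point is a gene, filled if it passed an adjusted p of 0.01; the red line is the median of the list and the dashed line that of all genes tested. Opposing factors lie to the right of 0 (medians 0.94 and 1.05), as do the 3 lineage targets tested (medians 0.69 and 0.67). The median of the effector targets lies at -1.23 in both, and the other lists lie nearer to 0 or spread to both sides.

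The genes most like each member over the 9 libraries, by Pearson correlation of log2(TPM + 1) among 8839 genes with a mean TPM of at least 5, are given as a description. The 9 points share 3 clones, so the measure mainly follows gaps between clones. Nearest to Irf8 were Tbx21 (r = 0.997), Cox7c (0.995) and Icam1 (0.995), and nearest to Id2 were Wbp1l (0.993), Icos (0.992) and Ddx50 (0.992). Bhlhe40 was closest to Spry2 (0.993), 1110004E09Rik (0.987) and Ywhaq (0.987), and Zeb2 to Myc, Mthfd2 and Smarcad1 (0.976 each). Irf4 was closest to Aven (0.967), Mrps18a (0.963) and Trnt1 (0.962), Batf to Mri1 (0.971), Ifi27 (0.969) and Psme2 (0.969), and Batf3 to Stat3 (0.950), Myo1g (0.943) and Cdc20 (0.942). Runx3 had no neighbour as close (Ncdn 0.837, Nenf 0.836 and Mrgbp 0.814). T-bet mRNA, nearest to Irf8, averaged 5.25 TPM in R7-II, a larger difference by log2 fold change (-2.94 relative to R7-I) than that of Irf8 itself.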

How the data were processed

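RNA from sorted CD8 T cells activated with ROP7 peptide was sequenced in 3 libraries for each of 3 clones. Per the submitters' processing notes, the authors used RSEM 1.2.11 and mm10; their methods name RSEM for both aligning reads and counting them per RefSeq gene. They deposited TPM, which keeps no depth. The library kit does not mark strand. Each of the 9 columns names its sample. The 11330 genes with a maximum TPM above 1 were tested on log2(TPM + 1) with limma 3.58.1 (R 4.3.3), with a mean-variance trend, 1 fit for the 9 libraries and Benjamini-Hochberg adjustment over all genes tested (threshold 0.01). On simulated data for R7-II relative to R7-I (10723 genes), 81.9% of 105 log2 changes of 0.5 and 96.8% of 95 changes of 1 were recovered, with 0 false calls. The simulation changed few genes, none of them of low TPM, and held no shift between clones. Its rates therefore do not cover genes of low TPM, the many changes seen here or the choice of scaling. The ratios of 7 gene pairs were tested by exact permutation (scipy 1.17.1). The members, pairs, 7 lists linked to the factors and 8 marker lists were chosen with earlier results of these data known. Named genes are the members, the genes of the pairs, the 3 most abundant genes of each list, in lists linked to the factors also the 2 that passed with the largest change relative to R7-I, markers at 0 in all libraries, and the 3 genes most like each member. Irf2, Prdm2, Runx2, Tcf3, Bach2, Gzma, Havcr2, Klrg1, Cx3cr1, S1pr5, Zbtb7b and Cd4 were named after their values were seen. A gene that this rule also names is not reported here. Of the CD8 T cell markers, Trac matched no row. Alternatives covered the pseudocount, filter, scaling, trend, threshold, libraries in the fit and a term for replicate number. Promoters (250 bases) and gene positions are from RefSeq on GRCm38.p6.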

Additional observations from a re-analysis of the deposited data

How the results depend on the processing

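The numbers of members passing were 6 (R7-II against R7-I), 7 (R7-II against R7-III) and 0 (R7-III against R7-I), and 5, 6 and 0 without Batf3. With Batf3 counted, leaving out 1 library at a time gave 5 to 6, 4 to 7 and 0. In the comparison with R7-III, 4 passed without R7-III replicate 2 (Irf4, Batf3 and Zeb2 were lost), and 4 also when only the libraries of the clones compared were in the fit; both fits hold fewer libraries, and the cause was not tested further. With a replicate block in the fit the counts were 6, 7 and 0. Deviations of libraries with the same number from their clone means correlated between -0.045 and 0.089, so the number was not taken as a pairing. Runx3 relative to R7-I turned from 0.00068 to -0.18 both with median-of-ratios scaling and with quantile normalization, and lay between -0.027 and 0.019 (-0.025 without R7-II replicate 3) with 1 library left out. Batf3 in R7-III relative to R7-I turned from -0.018 to 0.0074 with a pseudocount of 5 and lay between -0.27 and 0.33 with 1 library left out (0.0024 and 0.14 without R7-I replicate 1 or 2); it passed in no setting, and the cause was not tested. Of the 7 pair ratios, 4 parted R7-II from the other clones with each pseudocount, but not the same 4: with 0.1, Batf over Batf3 parted and Prdm1 over Bcl6 did not. With 1 library left out at a time, 0 ratios passed. Without an R7-II library the lowest possible exact permutation p is 0.0714, so none could pass; without another library it is 0.0357, which needs at least 6 of the 7 ratios to reach it. Irf8, Id2 and Bhlhe40 passed in both comparisons of R7-II under every alternative run. Of the other values recomputed (single genes and lists), 467 kept direction and call (for counts, within 1.5 times), 23 lost a call, 6 gained 1, 9 counts moved and 8 changed sign (Runx3 and Batf3, above).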
